A study of Rattus norvegicus with 65 samples.

Results

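The proteasome genes described here were the 50 genes, of 14554 in the count table, whose rat symbols begin with Psma, Psmb, Psmc, Psmd, Psme, Psmf or Psmg followed by a number. They comprised 7 alpha-ring and 7 beta-ring genes of the 20S core, 9 base and 8 lid genes of the 19S regulatory particle, 6 immunoproteasome genes, 7 assembly factors and 3 other regulators. A further 3 genes (Psmb6l1, Psmc3ip and Psme3ip1) share the symbols without being subunits of the standard particle and are given apart. Psma3 was not analysed here. Of the 50 genes, 48 had at least 10 counts in each of the 65 libraries. The exceptions were Psma8, the testis form of an alpha subunit, with 7 to 69 counts, and Psmb11, the thymus form of a beta subunit, with 0 to 23 counts.

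The 26S proteasome degrades proteins that carry ubiquitin chains. Its barrel-shaped 20S core holds the proteolytic sites inside the beta rings, the alpha rings gate the entry, and the 19S particle docks on the barrel: the lid strips ubiquitin and the ATPases of the base unfold the substrate. In muscle this route turns over contractile and regulatory proteins, and after interferon signalling the catalytic subunits Psmb5, Psmb6 and Psmb7 are replaced in new particles by Psmb8, Psmb9 and Psmb10, which favour peptides for antigen presentation.

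The RNA came from primary cardiomyocytes of neonatal rats, treated in culture for 6 or 24 h. The drugs were 5-fluorouracil (5FU, 10 mM, in 1% DMSO), acetaminophen (Ace, 2.5 mM, in 0.25% DMSO) and doxorubicin (Dox, 1.25 µM, in 0.25% DMSO), with vehicle controls DMSO1 (1%) and DMSO2 (0.25%). At 6 h there were 6 libraries each of 5FU, Ace and DMSO1 and 7 each of Dox and DMSO2, and at 24 h there were 6 each of 5FU and DMSO1 and 7 each of Ace, Dox and DMSO2. Cells from 3 litters were pooled into 1 preparation, and replicate libraries are separate wells of it, so a p-value measures the spread between wells. 5FU was compared with DMSO1, and Ace and Dox were each compared with the same DMSO2 libraries. Levels are CPM, counts divided by library totals that TMM normalization has scaled, given as the lowest, median and highest library of a group. Differences are log2 fold changes ± SE from edgeR's quasi-likelihood test over all 14554 genes, called at a Benjamini-Hochberg false discovery rate (FDR) below 0.01. Gene lengths were not used, so levels are compared between groups and not between genes.

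Library totals ranged from 14332827 to 25738297 counts (median 19219714) and TMM factors from 0.859 to 1.07. No pair of libraries in a group was alike to within sampling noise. The libraries farthest from their own group median were library 1 of DMSO1 at 24 h, library 7 of Dox at 24 h and library 1 of 5FU at 6 h, where the number only names a column. Without library 7 of Dox, 40 proteasome genes were called in Dox at 24 h in place of 41. The marker counts at 24 h are read against the shares of all genes called. These were 81.4% in Dox (40.4% higher and 41% lower), 55.8% in 5FU (28% and 27.8%) and 37.2% in Ace (18.2% and 19.1%). At 24 h in Dox, 8 of 8 cardiomyocyte markers were lower than in DMSO2, with a summed level of 8866 to 11854 CPM against 34833 to 46580 CPM. Lower as well were 7 of 7 fibroblast markers (1823 to 3837 against 13587 to 17474 CPM), 6 of 6 endothelial markers (18.9 to 42.8 against 249 to 332 CPM) and 7 of 8 macrophage markers (23.7 to 34.9 against 57.9 to 72.5 CPM). By contrast, 3 of 4 smooth muscle markers were higher (307 to 1579 against 433 to 607 CPM summed). Library 7 of Dox had the lowest of these sums, below each DMSO2 library, so the groups overlapped. In 5FU at 24 h, 6 of 8 cardiomyocyte markers (21289 to 23192 against 31487 to 39095 CPM), 7 of 7 fibroblast markers (5012 to 5678 against 9311 to 18754 CPM) and 5 of 6 endothelial markers (127 to 153 against 191 to 270.2 CPM) were lower, and the cardiomyocyte marker Tnni3 was higher. In Ace at 24 h 7 of 7 fibroblast (6916 to 8876 CPM), 4 of 6 endothelial (144 to 260.3 CPM), 5 of 8 macrophage (44 to 57.7 CPM) and 3 of 8 cardiomyocyte markers were lower. No cardiomyocyte, fibroblast, macrophage or smooth muscle marker was at 0 in any library. The endothelial marker Cldn5 was at 0 in 5 of 7 Dox libraries at 24 h and in 3 of 6 5FU libraries at 6 h. In bulk RNA, fewer cells of a type and less RNA per cell cannot be told apart, and the part of these shifts in the results below was not tested.

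Between 6 and 24 h the 26S subunit genes fell in the vehicle controls themselves. With both vehicles pooled, 30 of the 31 alpha, beta, base and lid genes were lower at 24 h and 1, Psma8, was higher. Among all genes tested, 64.6% were called in this comparison, 32.7% higher and 31.9% lower. The median log2 fold change of the 31 genes was -0.45, against 0.012 over all genes. The summed level of the 31 genes was 4695, 5240.4 and 5581 CPM in DMSO2 at 6 h and 3519, 3628 and 3982 CPM at 24 h. In DMSO1 it was 5009.7, 5232 and 5615 CPM at 6 h and 3513, 3786 and 4176 CPM at 24 h. No control library at 24 h reached the lowest control library at 6 h with the same vehicle. Over the same interval 6 of 7 fibroblast, 4 of 6 endothelial and 7 of 8 macrophage markers were higher in the controls, 3 of 4 smooth muscle markers were lower, and of the cardiomyocyte markers 2 of 8 were higher and 3 lower. In DMSO2 the summed levels went from 9223 to 13941 CPM at 6 h to 13587 to 17474 CPM at 24 h for fibroblast, from 204 to 257 CPM to 249 to 332 CPM for endothelial and from 38.5 to 48.6 CPM to 57.9 to 72.5 CPM for macrophage markers, and their part in the fall of the 26S genes was not tested.

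The largest falls in the lid, the beta ring and the base were those of Psmd14, Psmb6 and Psmc3. Psmd14, the deubiquitinase of the lid, changed by -0.83 ± 0.048. Psmb6, the caspase-like catalytic subunit, changed by -0.77 ± 0.058. Psmc3, an ATPase of the base, changed by -0.68 ± 0.035. Psma8 rose by 0.55 ± 0.17 at very low counts, and this call was lost without library 3 of DMSO1 at 24 h (0.45, FDR = 0.014). Outside the 26S classes, Psme1, a subunit of the PA28 activator that caps the core after interferon signalling, rose by 0.39 ± 0.041, and Psme4, the nuclear activator PA200, rose by 0.4 ± 0.042. The vehicles themselves differed little in these genes. At 6 h DMSO1 exceeded DMSO2 for 1 proteasome gene, the lid gene Psmd8 (0.34 ± 0.057), against 16.5% of all genes tested (9.87% higher and 6.6% lower), with 1 higher and 2 lower under library-size scaling. At 24 h edgeR called 0 proteasome genes between the vehicles, against 0.433% of all genes, although 9 had an unadjusted p under 0.05, and DESeq2 also called 0.

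**Figure D1:**
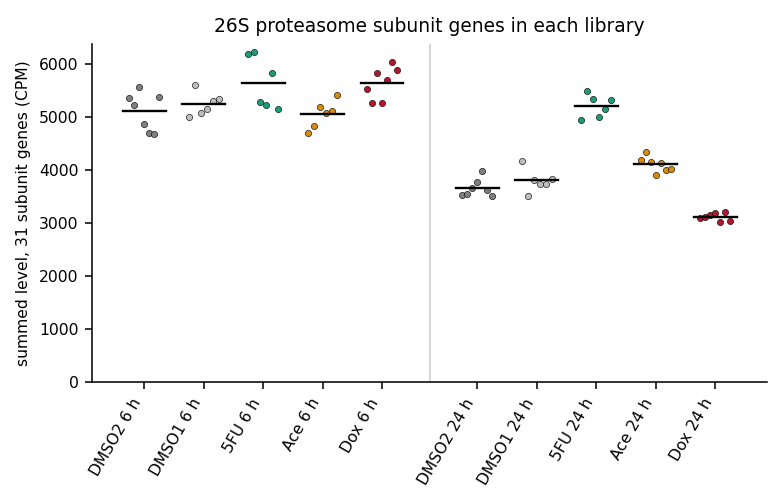
Summed level in CPM of the 31 26S subunit genes in each library, by group, with points for libraries and bars for group means. The control libraries at 24 h lie at 3513 to 4176 CPM in DMSO1 and 3519 to 3982 CPM in DMSO2, the 5FU libraries at 24 h at 4945 to 5504 CPM, and the Dox libraries at 24 h at 3035 to 3210.1 CPM.

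Under 5FU the 26S subunit genes stood at 24 h near the level of the 6 h control. Of the 31 genes, 30 were higher than in DMSO1 at 24 h and 0 lower, the exception being Psma8 (0.18 ± 0.24, FDR = 0.515 by edgeR's quasi-likelihood test). Over the whole family 42 of 50 genes rose and 1 fell, where 55.8% of all genes tested were called, 28% higher and 27.8% lower. The median of the 31 genes was 0.45, against -0.0094 over all genes. Their summed level was 4945, 5237 and 5504 CPM, above each DMSO1 library at 24 h. The mean sum stood at 99.2% of that in DMSO1 at 6 h, whereas that of DMSO1 at 24 h stood at 72.5%. All 6 alpha genes other than Psma8, 7 of 7 beta genes, 9 of 9 base genes and 8 of 8 lid genes were called.

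The largest rise in the core under 5FU at 24 h was that of Psmb6, with 118, 127 and 132 CPM against 54.4, 74.7 and 95.6 CPM in DMSO1, a change of 0.76 ± 0.085 (FDR = 1.19e-11). The 5FU and DMSO1 libraries did not overlap for this gene. In the alpha ring Psma2 led, with 148, 164 and 175 CPM against 91.2, 101 and 124 CPM (0.66 ± 0.066), again without overlap. In the base the largest change was that of the ATPase gene Psmc1, at 186, 207 and 224 CPM against 133, 140.3 and 162 CPM (0.53 ± 0.054, FDR = 4.42e-13), and the ATPase gene Psmc4 and the scaffold gene Psmd1 changed by 0.51 and 0.52. In the lid Psmd8, whose product joins the lid last, had 156, 166 and 175 CPM against 93.9, 97.9 and 116 CPM (0.71 ± 0.060). The smallest change among the called lid genes was that of Psmd7 (0.17 ± 0.042).

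At 6 h the 5FU response of the family was smaller. There were 13 genes higher and 5 lower of 50, where 47.9% of all genes were called, 23.4% higher and 24.5% lower. Under library-size scaling without TMM the split was 6 higher and 9 lower, and with DESeq2 size factors 14 and 3. In the 26S classes 9 genes rose and 2 fell, and with library-size scaling 3 rose and 4 fell. Among the rises, the calls of Psma6, Psmb1, Psmb5, Psmd2 and Psmd8 were each lost in at least 1 fit that left 1 library out. Psma7, an alpha-ring subunit, had 258, 291 and 356 CPM against 219, 231 and 251 CPM (0.36 ± 0.058), and these libraries did not overlap. Psmd13, a lid subunit, rose by 0.28 ± 0.046. The falls in the 26S classes were those of the lid scaffold Psmd11 (-0.16 ± 0.039) and the base ATPase Psmc6 (-0.24 ± 0.068). The 5FU effect was larger at 24 h than at 6 h, by a test of the difference itself, for 34 of 50 genes and smaller for 0, where 39.5% of all genes were called and 20.3% were higher. These 34 included 9 of 9 base and 8 of 8 lid genes but 5 of 7 alpha and 4 of 7 beta genes, and Psma7 and Psmb5 were among those not called (-0.042 ± 0.082 and 0.091 ± 0.095).

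Ace changed the family least. At 6 h it raised 1 of 50 genes and lowered 0, where 31.7% of all genes were called, 16.5% higher and 15.2% lower. With library-size scaling the split was 0 higher and 4 lower. The gene was Psme4, at 287, 322 and 337 CPM against 248, 276 and 308 CPM in DMSO2 (0.19 ± 0.059, FDR = 0.00589). The libraries overlapped, and the call was lost without library 1, 2, 4 or 6 of Ace or library 1, 2 or 7 of DMSO2 at 6 h, when the change lay between 0.18 and 0.19 and the FDR between 0.011 and 0.017. Of the 26S genes, edgeR called 0, with 4 at an unadjusted p under 0.05, and DESeq2 called 0. With library-size scaling edgeR called 3 of them lower.

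At 24 h Ace raised 22 of 50 genes and lowered 0, where 37.2% of all genes were called, 18.2% higher and 19.1% lower. In the 26S classes 14 rose, 5 of them in the lid, 4 in the base, 3 in the beta ring and 2 in the alpha ring, with a median of 0.12 against -0.00082 over all genes. The summed level of the 31 genes was 3909, 4136 and 4345 CPM, and its mean was 80.3% of that of DMSO2 at 6 h against 71.6% for DMSO2 at 24 h. The groups overlapped, the lowest Ace library lying within the range of DMSO2. The largest change was that of the lid gene Psmd3, with 177, 189 and 197 CPM against 139, 149 and 152 CPM (0.36 ± 0.037, FDR = 2.03e-12), and these libraries did not overlap. Psmb3, a beta-ring subunit without a catalytic site, changed by 0.32 ± 0.058, with 94.6, 96.4 and 105 CPM against 72.6, 77.3 and 91.6 CPM. The Ace effect was larger at 24 h than at 6 h for 9 genes, 8 of them in the base and lid, where 11.6% of all genes were called, 5.58% higher and 6.06% lower. That count fell to 5 without library 1, 2, 3 or 6 of Ace at 24 h or library 1 or 2 of Ace at 6 h, and to 4 without library 1 of DMSO2 at 6 h. With library-size scaling it was 25, of them 20 in the 26S classes.

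The response to Dox differed between the times. At 6 h 26 of 50 genes rose and 4 fell, where 64.2% of all genes were called, 31.5% higher and 32.7% lower. With library-size scaling, under which the median of all genes moved to -0.15, the split was 10 higher and 11 lower. Within the 26S classes, 10 of 14 core genes rose at 6 h and 0 fell, including 7 of 7 beta genes, with a median of 0.25. The calls of the beta genes Psmb1 and Psmb2 were each lost without library 6 of DMSO2 at 6 h (0.15 and 0.14), and that of Psmb1 also without library 4 or 5 of DMSO2 or 3, 5, 6 or 7 of Dox (0.14 to 0.17). Of the 17 base and lid genes, 4 rose and 3 fell, and the median was 0.06. With library-size scaling, 4 of the 31 26S genes were called higher and 7 lower. Of the 19 genes outside the 26S classes, 12 rose and 1 fell. In Dox at 6 h 6 of 6 endothelial markers (68 to 109 CPM summed against 204 to 257 CPM in DMSO2) and 4 of 7 fibroblast markers (7464 to 9859 against 9223 to 13941 CPM) were lower, and 4 of 4 smooth muscle markers were higher (1046 to 3195 against 713 to 1107 CPM). Among cardiomyocyte markers 3 of 8 were higher and 3 lower, and among macrophage markers 3 of 8 were higher and 1 lower. Their part in these calls was not tested. Psma7 had the largest called change in the core, with 269.9, 291 and 324 CPM against 214, 238 and 259 CPM (0.33 ± 0.054, FDR = 1.78e-07), and its groups did not overlap.

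At 24 h Dox lowered 25 of 50 genes and raised 16, where 81.4% of all genes were called, 40.4% higher and 41% lower. Among the 31 26S genes 18 fell and 6 rose, with a median of -0.22 against 0.0028 over all genes. Their summed level was 3035, 3118 and 3210.1 CPM, below each DMSO2 library at 24 h, and its mean was 61% of that of DMSO2 at 6 h. The Dox effect was lower at 24 h than at 6 h for 28 of 50 genes and higher for 9, where 64.8% of all genes were called. With library-size scaling, under which the median of all genes in that test moved to 0.27, the split was 21 lower and 13 higher.

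Among the 26S classes the median at 24 h was lowest in the alpha ring, where 5 of 7 genes fell with a median of -0.65. Psma1 had 56.5, 65.3 and 71.2 CPM against 110.04, 116 and 126 CPM (-0.86 ± 0.051, FDR = 7.42e-24). Psma6 had 67.9, 74.5 and 79.6 CPM against 119.9, 128 and 149 CPM (-0.81 ± 0.066). For both genes the highest Dox library lay below the lowest DMSO2 library. Psma7, the called core gene with the largest rise at 6 h, changed by -0.74 ± 0.054, and Psma2 by -0.028 ± 0.061, which did not pass the test (FDR = 0.674 by edgeR). Psma8 was the alpha gene that rose, from 19 to 28 counts in DMSO2 to 29 to 69 counts in Dox (1.04 ± 0.20).

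Members of the beta ring moved apart under Dox at 24 h, with 4 lower and 2 higher. Psmb5, the chymotrypsin-like subunit, had 77.3, 86.9 and 95.3 CPM against 123, 132 and 154 CPM (-0.62 ± 0.063). Psmb6 had 41.5, 54.7 and 57.2 CPM against 68.9, 75.7 and 77.5 CPM (-0.51 ± 0.080). Both catalytic genes were lower in each Dox library than in any DMSO2 library. Psmb3 went the other way, with 122, 129 and 143 CPM against 72.6, 77.3 and 91.6 CPM (0.72 ± 0.058, FDR = 4.75e-18), and Psmb4, also without a catalytic site, rose by 0.26 ± 0.063. In the base 6 of 9 genes fell and 0 rose. The call of Psmc2 was lost without library 4 or 5 of DMSO2 or library 2, 3, 4, 5, 6 or 7 of Dox at 24 h (-0.14 to -0.12). The ATPase gene Psmc4 had 51.6, 56.8 and 59.2 CPM against 77.9, 82.3 and 85.2 CPM (-0.54 ± 0.049, FDR = 6.40e-16), whereas the ATPase gene Psmc3 changed by -0.013 ± 0.048 and did not pass the test.

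The lid was divided evenly at 24 h in Dox, with 3 genes lower (Psmd3, Psmd11 and Psmd12) and 3 higher (Psmd7, Psmd8 and Psmd13). Psmd11, a lid scaffold subunit, had 32.9, 39.5 and 41.7 CPM against 89.8, 94.5 and 103 CPM, a 2.43-fold fall (-1.28 ± 0.038, FDR = 4.45e-40). It was already low at 6 h, with 76.03, 81.2 and 82.5 CPM against 118, 119 and 129.7 CPM (-0.597 ± 0.036). At neither time did a Dox library reach a DMSO2 library. Psmd8 had 147, 156 and 164 CPM against 88.7, 90.8 and 99.3 CPM (0.75 ± 0.056, FDR = 1.90e-19), after a rise of 0.71 ± 0.055 at 6 h. The Dox libraries lay above all DMSO2 libraries at both times. Psmd12 and Psmd3 fell by 0.68 and 0.56 on the log2 scale, and Psmd13 rose by 0.39 ± 0.043.

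**Figure D2:**
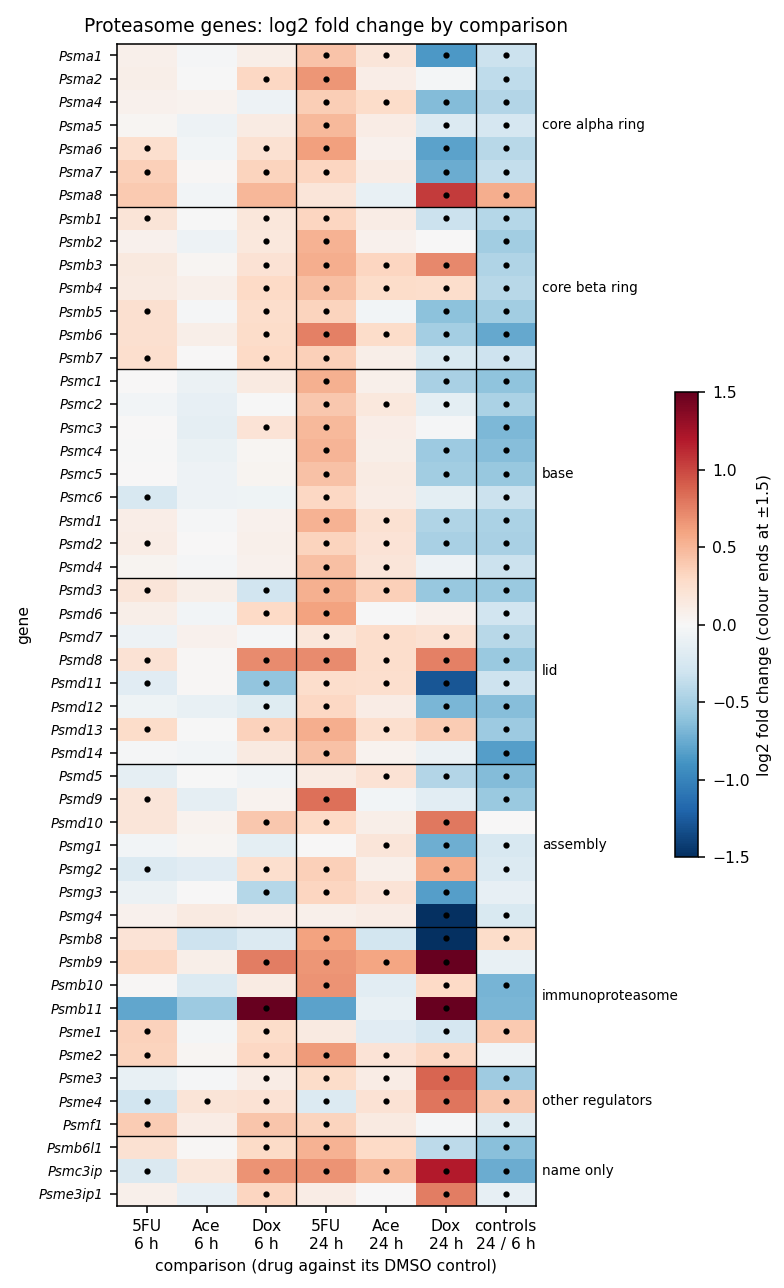
Log2 fold change of each of the 50 proteasome genes (vertical axis, by class) in the 6 comparisons of a drug with its DMSO control and in the controls at 24 h against 6 h (horizontal axis), with colour for size and direction and a dot for FDR below 0.01. The 5FU column at 24 h holds 42 higher genes and 1 lower, and the Dox column at 24 h holds 16 higher and 25 lower.

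The effects of Dox and 5FU at 24 h, each against its own vehicle, were set against each other by a test of their difference. The Dox effect lay below the 5FU effect for 36 of 50 genes and above it for 7, where 71.1% of all genes were called and 35.4% lay below. For the 26S classes these counts were 25 and 0 of 31, with a median difference of -0.68 against 0.031 over all genes. The largest of these differences was that of Psmd11 (-1.55 ± 0.054), followed by Psma6 (-1.42 ± 0.10), Psma1 (-1.29 ± 0.075) and Psmb6 (-1.27 ± 0.12). For Psmd8 the difference was 0.045 ± 0.082 and for Psmb3 0.17 ± 0.085, and neither passed the test. Gene by gene, 21 members rose in 5FU and fell in Dox, 12 rose in both, and 1, Psme4, fell in 5FU and rose in Dox. Of all genes, 28% rose and 27.8% fell in 5FU, and 40.4% rose and 41% fell in Dox. The share of all genes in each combination was not counted, so these counts describe the members only. At 6 h the same test called 7 genes above and 3 below, where 45.9% of all genes were called, and 5 and 5 under library-size scaling. At that time 1 of the 31 26S genes was above (Psmd8, 0.49 ± 0.081) and 2 were below (Psmd3, -0.48 ± 0.054, and Psmd11, -0.43 ± 0.053). Psmd8 also differed between the vehicles at 6 h, so its value includes the gap between the controls. It had 173 to 232 CPM in Dox and 172 to 204 CPM in 5FU, against 115 to 137 CPM in DMSO2 and 133 to 186 CPM in DMSO1.

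Ace and Dox shared the DMSO2 libraries and were also compared directly. At 6 h Dox exceeded Ace for 27 genes and lay below it for 4, where 62.1% of all genes were called. Under library-size scaling, with the median of all genes at -0.11, the split was 14 and 7. At 24 h the counts were 13 higher and 27 lower, where 80.6% of all genes were called and 39.9% were lower, and 20 of the 31 26S genes were lower and 4 higher.

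A stretch around the antioxidant response element core is shown for 5 genes, because Nfe2l1 and Nfe2l2, which bind it, are the known activators of 26S subunit genes. The letters searched were TGACNNNGC on either strand in RefSeq windows of 300 bases, 250 of them before the annotated start (rat GRCr8). Such windows were held for 45 of the 50 genes and missing for Psma7, Psmd6, Psmd14, Psmb11 and Psmd12. The core was in 12.1% of 33469 windows and in 7 of the 45 (15.6%): Psmb2, Psmb5, Psmb6, Psmd1, Psmd3, Psmd9 and Psme4. Capitals mark the match, read 5′ to 3′ on the strand of the gene.
Psmb6, chr10:55737854-55737883, plus strand: ctaaagagagTGACGGAGCgctttacgacc
Psmb5, chr15:32047420-32047449, minus strand: cgtgaagctgTGACGTCGCggcgttgcccg
Psmd1, chr9:94157796-94157825, plus strand: accagatctaTGACCTCGCgagaattataa
Psmd9, chr12:39018322-39018351, minus strand: gagtttccggTGACCTCGCcccacctccaa
Psme4, chr14:108706578-108706607, plus strand: ggagaaagccGCTGGGTCAcctcctcgcct
Of these 5 genes, the first 4 rose under 5FU at 24 h and Psme4 fell. Psmb5, Psmb6 and Psmd1 fell under Dox at 24 h, Psme4 rose and Psmd9 did not pass the test. Psmb2 and Psmd3, whose matches are not shown, rose under 5FU at 24 h. Under Dox at 24 h Psmd3 fell and Psmb2 did not pass the test.

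At 24 h 5FU raised 4 of 7 assembly factors and lowered 0, where 55.8% of all genes were called and 28% were higher. Psmg1, Psmg4 and Psmd5 were not called. The largest rise was that of Psmd9, a chaperone of the base, with 54.6, 58.3 and 62.4 CPM against 29.04, 32.9 and 40.04 CPM (0.82 ± 0.065, FDR = 2.22e-17), and the groups did not overlap. The others were Psmg2 (0.36 ± 0.067), Psmg3 (0.32 ± 0.072) and Psmd10 (0.3 ± 0.10). The call of Psmd10 was lost without library 2 or 5 of 5FU or library 1 or 3 of DMSO1 at 24 h (0.26 to 0.29).

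Under Dox at 24 h 4 of 7 assembly genes fell (Psmg1, Psmg3, Psmg4 and Psmd5) and 2 rose (Psmg2 and Psmd10), a share called near the 81.4% of all genes (40.4% higher and 41% lower). Psmg4, which pairs with the Psmg3 product to help build the alpha ring, had 5.08, 6.52 and 8.201 CPM against 22.3, 26.9 and 28.2 CPM, a 3.98-fold fall (-1.99 ± 0.094, FDR = 5.20e-29). At 6 h it had 25.7, 29.5 and 36.1 CPM against 25.6, 27.6 and 32 CPM (0.101 ± 0.082), and those groups overlapped. The fall was thus present at 24 h and not called at 6 h, and the difference between the times passed the test (-2.09 ± 0.13). Psmg3 had 11.05, 11.8 and 13.3 CPM against 19.1, 20.7 and 25.7 CPM (-0.82 ± 0.070), and it had also fallen at 6 h (-0.43 ± 0.068). The partners of the other alpha-ring chaperone went in opposite directions: Psmg1 fell by 0.73 on the log2 scale and Psmg2 rose by 0.55 ± 0.062. Psmd10, a base chaperone also known as gankyrin, rose from 6.34, 7.15 and 9.299 CPM to 10.3, 13.01 and 13.8 CPM (0.79 ± 0.086).

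**Figure D3:**
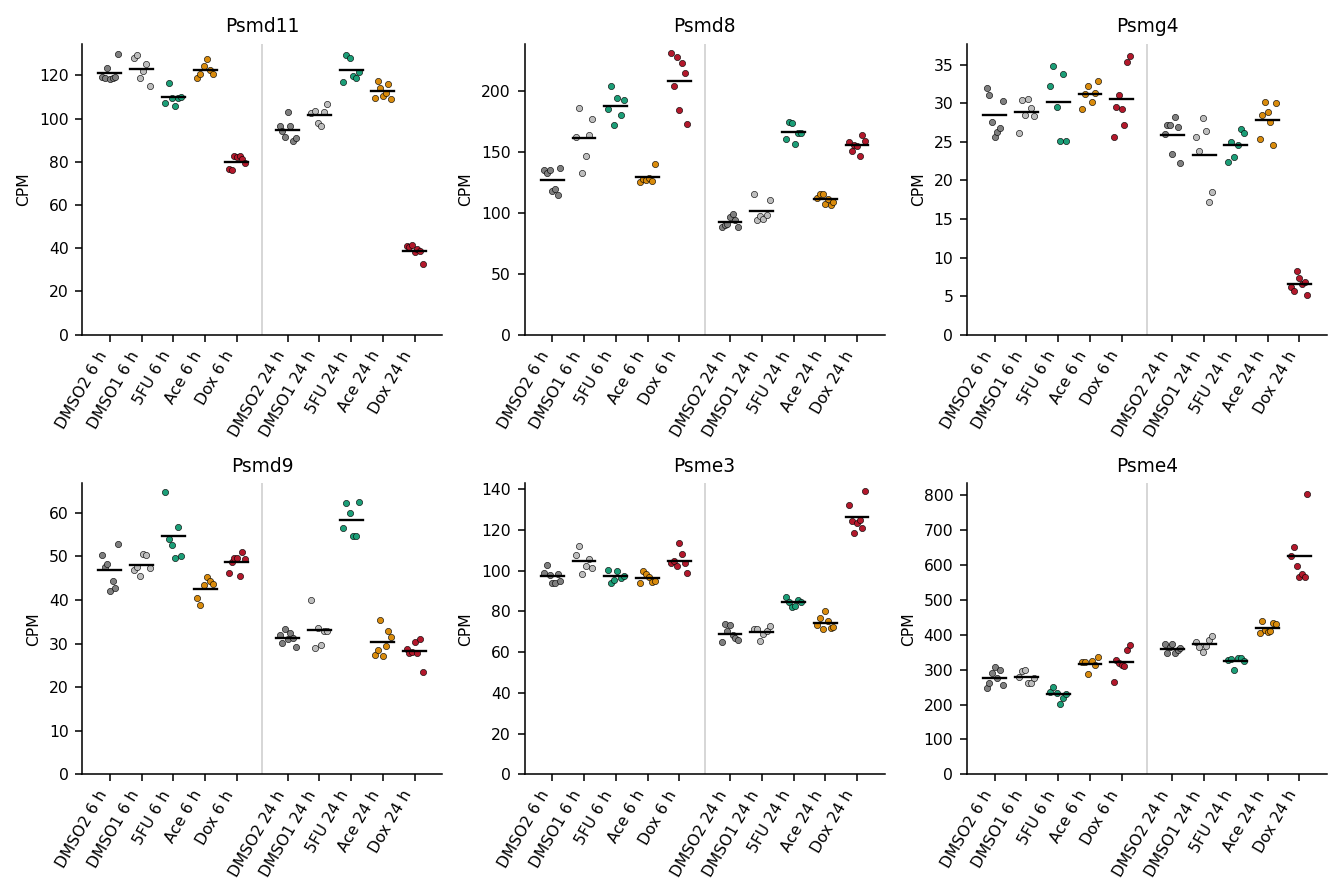
Level in CPM in each library, by group, of the lid genes Psmd11 and Psmd8, the assembly genes Psmg4 and Psmd9, and the activators Psme3 and Psme4, with points for libraries and bars for group means. In Dox at 24 h Psmd11 lies at 32.9 to 41.7 CPM and Psmg4 at 5.08 to 8.201 CPM, below all DMSO2 libraries, whereas Psmd8, Psme3 and Psme4 lie above them.

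The immunoproteasome genes did not move as a unit. The largest change in the family was that of Psmb9, the interferon-inducible partner of Psmb6. Under Dox at 24 h it had 68.3, 78.2 and 91.8 CPM against 6.01, 6.81 and 8.53 CPM, a 10.9-fold rise (3.45 ± 0.11, FDR = 7.68e-38). At 6 h it had 10.2, 14.7 and 18.5 CPM against 6.75, 9.098 and 11.4 CPM (0.77 ± 0.11). The groups overlapped at 6 h and were far apart at 24 h, and the increase between the times passed the test (2.69 ± 0.15). Psmb9 also rose at 24 h in 5FU, with 11.8, 13.1 and 16.4 CPM (0.67 ± 0.12), and in Ace, with 9.57, 10.5 and 12.5 CPM (0.59 ± 0.11).

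Psmb8, the inducible partner of Psmb5, fell under Dox at 24 h. It had 1.93, 2.55 and 3.196 CPM against 4.82, 7.65 and 8.205 CPM, a 2.83-fold fall (-1.501 ± 0.13, FDR = 1.63e-16), and no Dox library reached a DMSO2 library. Under 5FU at 24 h it rose, with 9.53, 10.2 and 11.8 CPM against 6.14, 6.99 and 7.28 CPM (0.602 ± 0.13). The macrophage markers, from cells that normally carry immunoproteasomes, were summed at 23.7 to 34.9 CPM in Dox at 24 h, at 57.9 to 72.5 CPM in DMSO2, at 57.5 to 63.9 CPM in 5FU and at 54.4 to 71.4 CPM in DMSO1. Their part in the fall of Psmb8 was not tested. Psmb10, the inducible partner of Psmb7, rose in Dox at 24 h by 0.29 ± 0.088 and in 5FU at 24 h by 0.67 ± 0.093, with 26.3, 27.8 and 29.2 CPM in 5FU against 14.9, 17.95 and 18.7 CPM in DMSO1. Psmb11 had 12 to 23 counts in Dox at 24 h against 0 to 5 in DMSO2, and 3 to 13 against 0 to 9 at 6 h. Both differences passed the test (FDR = 1.21e-10 and 4.36e-04 by edgeR), and no fold is given at such counts. Psmb11 had 10 or more counts in 10 libraries, all of them Dox libraries. It thus passed the count filter only through the Dox groups. Its calls are counted among the genes that Dox raised, but they cannot serve as support for a Dox effect.

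The PA28 activator genes Psme1 and Psme2 rose together at 6 h in 5FU (0.35 ± 0.061 and 0.34 ± 0.065) and in Dox (0.27 ± 0.056 and 0.31 ± 0.060). At 24 h they parted. Psme2 remained higher in 5FU (0.64 ± 0.065) and in Dox (0.32 ± 0.060). Psme1 changed by 0.13 ± 0.061 in 5FU, which did not pass the test (FDR = 0.0475 by edgeR), and fell in Dox (-0.25 ± 0.056).

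**Figure D4:**
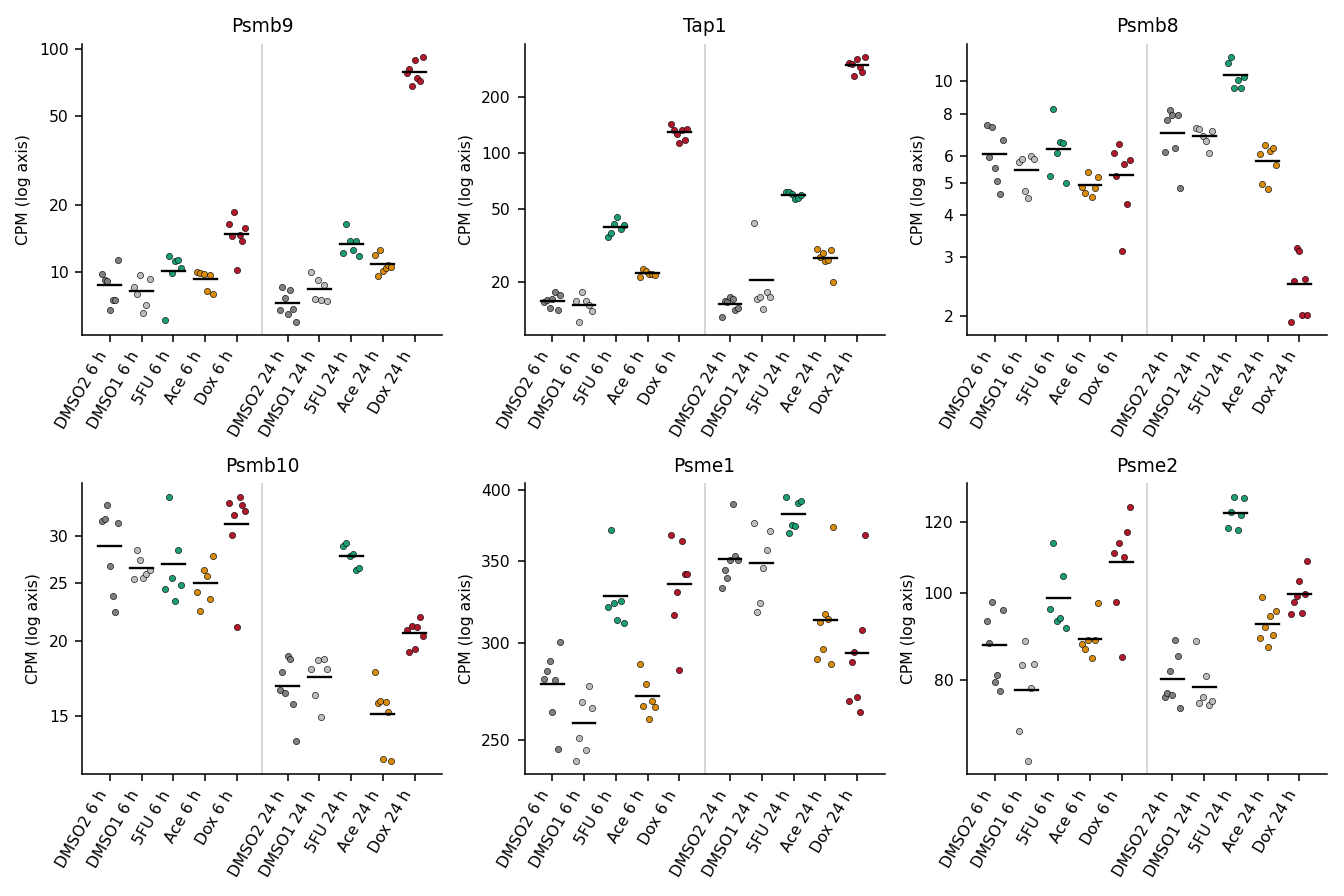
Level in CPM (log axis) in each library, by group, of Psmb9, Tap1, Psmb8, Psmb10, Psme1 and Psme2, with points for libraries and bars for group means. In Dox at 24 h Psmb9 lies at 68.3 to 91.8 CPM and Tap1 at 261 to 328 CPM, above all other groups, and Psmb8 at 1.93 to 3.196 CPM, near the lower end of its panel.

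Each inducible catalytic gene was also set against its constitutive partner within the same library, which removes the library scaling. The ratio is not per length, so its change between groups is read and not its size. There were 24 comparisons with exact two-sided permutation tests, adjusted over all 24. In Dox at 24 h there were 131 to 221 Psmb9 counts per 100 Psmb6 counts, against 7.93 to 11.7 in DMSO2 (log2 difference 3.97 ± 0.12, adjusted p = 0.0047, exact permutation test). The unadjusted p of 0.00058 is the smallest that 7 against 7 libraries can give. At 6 h the ratio was 7.59 to 12 in Dox against 5.70 to 8.51 (0.47 ± 0.11, adjusted p = 0.012, exact permutation test). In Ace at 24 h it was 9.45 to 13.4 (0.32 ± 0.09, adjusted p = 0.019, exact permutation test). In 5FU at 24 h Psmb9 and Psmb6 both rose and the ratio was 9.18 to 12.4 against 9.34 to 13.7 in DMSO1 (-0.11 ± 0.11, adjusted p = 0.40, exact permutation test). Reads of Psmb6 and of its near copy Psmb6l1 may be shared between them by the counting, and this ratio carries that uncertainty.

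Psmb8 went down against Psmb5 in Dox at 24 h, from 3.75 to 6.04 per 100 in DMSO2 to 2.23 to 3.46 (-0.88 ± 0.14, adjusted p = 0.0047, exact permutation test), although Psmb5 itself had fallen. The ratio was lower at 6 h in Dox (-0.50 ± 0.13) and in Ace (-0.28 ± 0.06), each with an adjusted p of 0.0056 by the exact permutation test. In Dox at 6 h Psmb5 had risen with the other beta genes, and Psmb8 had 3.13 to 6.52 CPM against 4.61 to 7.42 CPM. In 5FU at 24 h the ratio was higher (0.27 ± 0.09, adjusted p = 0.035, exact permutation test), which lost its call in some fits that left 1 library out (0.22 to 0.32). Psmb10 rose against Psmb7 at 24 h in Dox (0.52 ± 0.06, adjusted p = 0.0047, exact permutation test) and in 5FU (0.31 ± 0.08, adjusted p = 0.019, exact permutation test). This ratio fell at 24 h in Ace (-0.24 ± 0.07, adjusted p = 0.019, exact permutation test). At 6 h the ratio fell in 5FU and in Ace (-0.24 ± 0.06 and -0.20 ± 0.06, each with an adjusted p of 0.019 by the exact permutation test). Psmb10 itself overlapped at 6 h, with 23.3 to 34.8 CPM in 5FU and 25.4 to 28.4 CPM in DMSO1. With group medians in place of means, 7 of the 12 called ratios passed. No ratio differed between the vehicles at an adjusted p under 0.05.

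**Figure D5:**
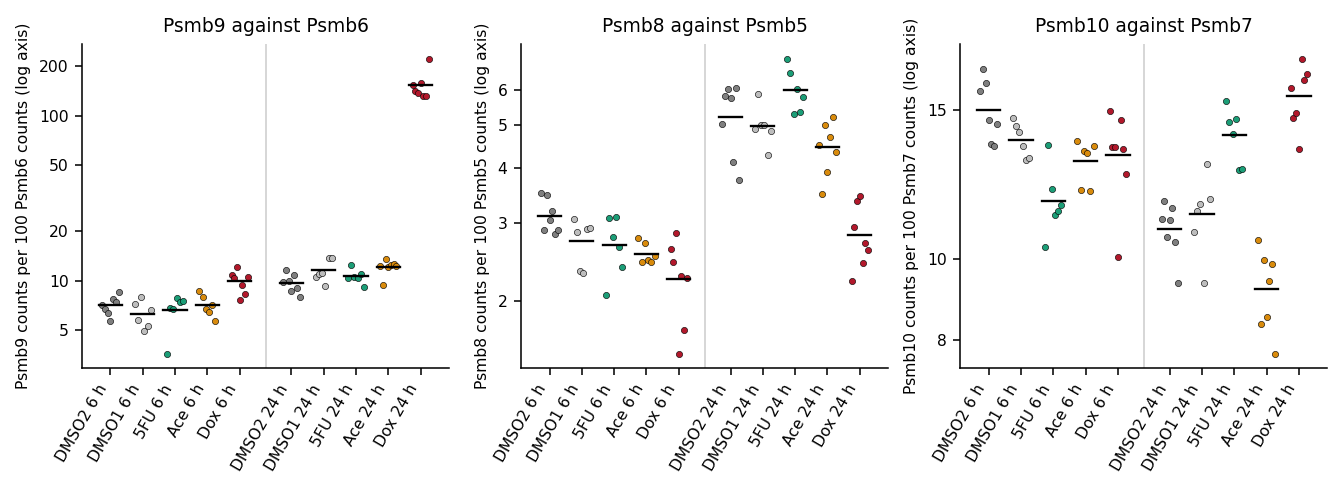
Counts of each inducible catalytic gene per 100 counts of its constitutive partner (log axis) in each library, by group, with points for libraries and bars for group means. The Psmb9 to Psmb6 ratio of the 7 Dox libraries at 24 h lies at 131 to 221, above all other libraries.

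Psmb9 and Tap1, which encodes a subunit of the transporter that carries proteasome-made peptides into the endoplasmic reticulum, lie head to head on chromosome 20 with 408 bases between their annotated starts (RefSeq, GRCr8), and Psmb8 and Tap2 follow on the Tap1 side. Tap1 rose in each of the 6 drug comparisons. In Dox at 24 h it had 261, 300.01 and 328 CPM against 12.9, 15.8 and 16.7 CPM (4.29 ± 0.12), and at 6 h it rose by 3.01 ± 0.12. Both neighbours of the shared interval were thus far above their controls at 24 h, while Psmb8, whose start lies 1121 bases beyond the end of Tap1, fell. The bases upstream of each start are shown because this interval lies between the members of the pair. The motif searched was the interferon-stimulated response element core, which is TTTC, then any 2 bases, then TTTC, on either strand, and capitals mark a match.
Tap1, chr20:4668544-4668793, minus strand: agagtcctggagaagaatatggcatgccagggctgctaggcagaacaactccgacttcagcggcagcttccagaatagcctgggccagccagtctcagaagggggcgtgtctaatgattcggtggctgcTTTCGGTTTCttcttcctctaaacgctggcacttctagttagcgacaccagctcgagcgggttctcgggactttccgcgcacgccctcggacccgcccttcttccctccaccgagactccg
Psmb9, chr20:4668750-4668951, plus strand: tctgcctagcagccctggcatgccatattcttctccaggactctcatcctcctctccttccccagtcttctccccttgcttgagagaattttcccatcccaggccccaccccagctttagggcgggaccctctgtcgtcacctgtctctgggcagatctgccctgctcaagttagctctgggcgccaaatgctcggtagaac
The sequences overlap by 44 bases, and the match lies 111 bases from the Tap1 start and 287 bases from the Psmb9 start, outside the Psmb9 window searched. The Psmb9 window begins 202 bases upstream of the gene's start, since the table sets it on a start inside the gene.

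The same core was in 3.92% of the 33469 windows and in 7 of the 45 proteasome windows (15.6%): Psma4, Psmb3, Psmb8, Psmb10, Psmd7, Psme2 and Psmg4. It is shown for 4 of these genes, which moved in different directions under Dox at 24 h.
Psmb8, chr20:4657016-4657045, minus strand: gtgctgtggcTTTCGCTTTCacttccttgt
Psmb10, chr19:50743290-50743319, minus strand: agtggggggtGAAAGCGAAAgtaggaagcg
Psme2, chr15:33052785-33052814, minus strand: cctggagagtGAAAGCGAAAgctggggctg
Psmg4, chr17:30923347-30923376, minus strand: gcgcgcagctGAAAGTGAAAgagcgctcag
Psmb10 and Psme2 rose and Psmb8 and Psmg4 fell in that comparison. Of the genes with a match that are not shown, Psmb3 and Psmd7 rose and Psma4 fell. Whether the match bears on these changes was not tested.

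Among other genes of interferon signalling and antigen presentation, 5 of 6 rose in Dox at 24 h and 0 fell, where 40.4% of all genes were higher. In 5FU at 24 h 6 of 6 rose, where 28% of all genes were higher. Nlrc5, the activator of class I antigen presentation genes, changed by 4.63 ± 0.18 in Dox and 1.82 ± 0.20 in 5FU. Irf1, an interferon-responsive transcription factor known to act on Psmb9, rose in Dox by 0.83 ± 0.069 at 6 h and 1.44 ± 0.069 at 24 h.

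Of the 3 remaining regulators, Psme3 and Psme4 rose in Dox at 24 h. Psme3, the nuclear PA28 gamma activator, had 118, 124 and 139 CPM at 24 h against 65.03, 68.3 and 73.9 CPM (0.87 ± 0.035, FDR = 8.98e-33). Psme4 had 564, 597 and 804 CPM against 347, 361 and 373 CPM (0.797 ± 0.057), and without library 7, the highest, the change was 0.75. The Dox and DMSO2 libraries did not overlap for either gene. Under 5FU Psme4 fell at 6 h (-0.28 ± 0.062) and at 24 h (-0.202 ± 0.062), the second call being lost without library 6 of 5FU or library 5 or 6 of DMSO1 at 24 h (-0.19 to -0.17). Psme4 was thus the 1 proteasome gene that fell in 5FU at 24 h. Psmf1, which encodes the proteasome inhibitor PI31, rose at 6 h in Dox (0.42 ± 0.046) and in 5FU (0.38 ± 0.050). At 24 h it was higher in 5FU (0.33 ± 0.051) and in Dox changed by -0.018 ± 0.047 (FDR = 0.72 by edgeR).

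Of the genes that share only the symbol, Psmc3ip, whose product acts in homologous recombination, had 22.9, 24.4 and 26.8 CPM in Dox at 24 h against 8.97, 10.7 and 12.2 CPM (1.195 ± 0.069), and it also rose in 5FU (0.67 ± 0.075) and Ace (0.49 ± 0.070) at 24 h. Psme3ip1, which binds the Psme3 product, rose in Dox at 24 h by 0.76 ± 0.051. Psmb6l1 fell in Dox at 24 h by 0.40 on the log2 scale, with the uncertainty of shared reads given above.

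Other genes of the ubiquitin and proteasome route are read against the 55.8% of all genes called in 5FU at 24 h (28% higher and 27.8% lower) and the 81.4% called in Dox at 24 h (40.4% higher and 41% lower). Of 5 transcriptional regulators of proteasome genes, 4 rose in 5FU at 24 h and 0 fell, and 2 rose and 1 fell in Dox at 24 h. Nfe2l1, the factor that restores proteasome gene expression when proteasome activity is short, changed by 0.45 ± 0.051 in 5FU at 24 h and by 0.74 ± 0.047 and 2.28 ± 0.049 in Dox at 6 and 24 h. Nfe2l2, the oxidative stress factor, rose by 1.01 ± 0.059 in Dox at 24 h. Of 5 subunits and assembly factors with other symbols, Pomp, the chaperone of the maturing core, rose in Dox at 24 h by 1.14 ± 0.25 and the small lid subunit Sem1 fell (-0.61 ± 0.067), with 3 of the 5 higher and 2 lower. In 5FU at 24 h the ubiquitin receptor Adrm1 rose by 0.59 ± 0.046. Of 11 proteasome-bound ubiquitin enzymes and shuttles, 9 rose and 2 fell in 5FU at 24 h, whereas 3 rose and 5 fell in Dox. Of 6 ubiquitin and E1 genes, 4 rose and 1 fell in 5FU at 24 h and 3 rose and 2 fell in Dox. The muscle ubiquitin ligases Fbxo32 and Trim63, which mark proteins of wasting muscle for the proteasome, both fell in Dox, by 1.68 and 1.41 at 6 h and by 1.84 and 1.51 at 24 h on the log2 scale.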

How the data were processed

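RNA of 65 cultures was sequenced as paired reads after polyA selection. The authors pseudoaligned the reads with kallisto 0.46.0 to the rat Ensembl v96 transcriptome, added transcript estimates up by gene using tximport, and dropped genes with consistently low counts. The deposited values are expected counts per gene, whole numbers as deposited and not normalized, and 14554 genes were tested. The authors used DESeq2, and columns of their comparisons were not used.

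The expected counts were fitted with edgeR 4.0.16 in R 4.3.3 in 1 model of 10 groups with TMM scaling and a filter of 10 counts in at least 1 library. A gene was called at a Benjamini-Hochberg FDR below 0.01 over all genes. Ratios of catalytic genes were tested with exact two-sided permutation tests in scipy 1.17.1, adjusted over 24 tests. The code was tested on simulated data. Depth was 14332827 to 25738297 counts a library. The genes, lists and tests were chosen with earlier results of these data known. The rule for named genes took the called genes with the largest change in a comparison and class, in no fixed order, and the catalytic pairs, and other members were named after their values were seen. Other fits used DESeq2 1.42.0, other scalings, filters and thresholds, the compared groups alone, and each library left out in turn. The groups come from the sample labels. Columns of the table carry a group but no sample name, so library numbers name columns only. Pseudoalignment divides reads between near-identical copies, which bears on Psmb6 and Psmb6l1.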

Additional observations from a re-analysis of the deposited data

Results flagged for a closer look

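Of 270 sets of libraries examined (27 values in 10 groups), 22 held a library far from the others of its group. The nominal rate of the rule is about 1 in 20, which was not measured on these data. Library 7 of Dox at 24 h was the most frequent. Its summed level of immunoproteasome genes was 591.1 CPM (others 456.7 to 504.2 CPM) and that of the regulators Psme3, Psme4 and Psmf1 was 976.2 CPM (719.1 to 804.0 CPM). Its Psme4 level was 803.5 CPM, its log2 ratio of Psmb9 to Psmb6 was 1.146, its Psmd9 level 23.56 CPM, its Psmc1 level 81.99 CPM and its Psmd11 level 32.93 CPM. Each lay beyond the other 6 libraries on the side away from DMSO2. With this library left out, 40 proteasome genes were called in Dox at 24 h in place of 41.

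Among the other libraries, library 5 of DMSO2 at 24 h had summed levels of 829.4 CPM for alpha-ring genes and 511.6 CPM for immunoproteasome genes, both high. The summed immunoproteasome level was high in library 2 of 5FU at 6 h (539.4 CPM) and in library 7 of Ace at 24 h (497.5 CPM). In that Ace library Psme1 stood at 373.2 CPM, against 288 to 317 CPM in the others. Its Psmb10 level was the lowest of the group (12.6 CPM). In library 2 of 5FU Psmb8, Psmb9, Psmb10 and Psme1 were each the highest of the group. Library 3 of 5FU at 24 h was low for the regulators (425.0 CPM) and for Psme4 (299.7 CPM). Library 1 of 5FU at 6 h was low for Psmb9 (6.117 CPM) and for its log2 ratio to Psmb6 (-4.788), and that ratio was also low in library 2 of Ace at 24 h (-3.404). The log2 ratio of Psmb10 to Psmb7 was low in library 4 of Dox at 6 h (-3.316), and the Psma1 level was low in library 4 of Ace at 24 h (120.8 CPM). High single levels were those of Psma8 in library 5 of 5FU at 6 h (2.166 CPM), Psmb11 in library 4 of DMSO2 at 6 h (0.3943 CPM), Psmd8 in library 6 of Ace at 6 h (140 CPM) and Psmc3ip in library 1 of DMSO1 at 24 h (15.7 CPM).

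Tests of a difference between effects passed for part of the 50 proteasome genes, and the shares of all genes called are given beside the counts. The effect differed between 24 and 6 h for 34 genes in 5FU (39.5% of all genes), 9 in Ace (11.6%) and 37 in Dox (64.8%). The Dox effect differed from the 5FU effect for 10 genes at 6 h (45.9% of all genes) and 43 at 24 h (71.1%).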

How the results depend on the processing

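Counts of called proteasome genes moved by over 1.5 times under these alternatives, for reasons that were not tested beyond the stricter or looser thresholds themselves. With an absolute log2 fold change of at least 0.5 also required, they were 0 in 5FU, 0 in Ace and 5 in Dox at 6 h. The shares of all genes called there were 21%, 11.5% and 36%. At 24 h the counts were 19, 1 and 26, against 28.7%, 16.1% and 63.5% of all genes. Between the vehicles at 6 h 0 were called (5.48% of all genes) and in the controls over time 19 (27.3%). For 24 against 6 h the counts were 10, 0 and 23 in 5FU, Ace and Dox (23.3%, 6.06% and 49.6%). They were 5 for Dox against Ace at 6 h (34.7%) and 3 for Dox against 5FU effects at 6 h (31.9%). At an FDR below 0.1 they were 12 in Ace (48.9% of all genes) and 5 between the vehicles (32.6%) at 6 h. For 24 against 6 h in Ace 23 were called (26.6%), and for Dox against 5FU effects at 6 h 16 (60.9%). With the compared groups alone, 10 were called in 5FU at 6 h (37.8% of all genes). With library-size scaling, 4 were called in Ace (30.3% of all genes) and 3 between the vehicles (16.8%) at 6 h. For 24 against 6 h in Ace 25 were called (12.5%), and Psme3 in Dox at 6 h turned to -0.044 from 0.11. The DESeq2 Wald test called 2 between the vehicles at 6 h (17.7% of all genes). With medians, 7 of the catalytic ratios passed in place of 12.

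With 1 library left out at a time, the counts were 13 to 18 in 5FU, 0 to 2 in Ace and 27 to 31 in Dox at 6 h, 42 to 43, 17 to 23 and 40 to 41 at 24 h, 1 to 3 and 0 to 0 between the vehicles at 6 and 24 h, and 44 to 46 in the controls over time. They were 31 to 34, 4 to 9 and 36 to 38 for 24 against 6 h in 5FU, Ace and Dox, 27 to 32 and 39 to 40 for Dox against Ace at 6 and 24 h, 9 to 14 and 42 to 44 for Dox against 5FU effects, and 11 to 13 for the ratios. Ace at 6 h had 2 without library 5 of DMSO2, and the vehicles at 6 h had 3 without library 3 of DMSO1 and 2 without library 3 or 7 of DMSO2. Of 201 called results for single genes, 25 lost the call in at least 1 such fit. No paired analysis was possible because the columns carry no replicate numbers. Psma8 and Psmb11, at few counts, are limited by depth.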
